A study of Rattus norvegicus with 4 samples.

Results

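The 9 genes described here encode the subunits of 2 families of ionotropic glutamate receptors, the AMPA receptors (Gria1, Gria2, Gria3 and Gria4) and the kainate receptors (Grik1, Grik2, Grik3, Grik4 and Grik5). They were chosen by symbol, and each symbol matched 1 of the 25399 genes in the files. The identifiers are ENSRNOG00000045816 for Gria1, ENSRNOG00000054204 for Gria2, ENSRNOG00000007682 for Gria3, ENSRNOG00000006957 for Gria4, ENSRNOG00000001575 for Grik1, ENSRNOG00000000368 for Grik2, ENSRNOG00000008992 for Grik3, ENSRNOG00000030910 for Grik4 and ENSRNOG00000020310 for Grik5. AMPA receptors are tetramers that open within milliseconds of glutamate binding and carry most fast excitatory transmission in the cortex. The edited form of the Gria2 product keeps the channel nearly impermeable to calcium, so the share of Gria2 among the AMPA subunits is commonly followed after exposure to psychostimulants. In kainate receptors the Grik1 to Grik3 products can form channels alone, while the Grik4 and Grik5 products need one of these as partner.

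Nuclei came from the orbitofrontal cortex, a prefrontal area involved in valuing rewards, of wild-type Sprague-Dawley rats, all males 8 weeks old. One of the groups had received the psychostimulant methamphetamine (METH) at 1 mg/kg for 7 days and the other group saline for 7 days by the same intraperitoneal route, in a model of behavioural sensitization. Tissue of 4 animals per group was used, and each group is represented by 2 single-nucleus libraries. The labels do not tie animals to libraries, so a p-value below covers the spread between 2 libraries per group and may hold technical as well as animal variation.

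The 4 libraries held 8467 to 18958 barcodes and 37758602 to 44034787 UMIs (unique molecular identifiers, each standing for 1 captured RNA molecule). After filtering, 39127 nuclei in 25 clusters were kept, and the 9 subunit genes were left out of the clustering. Saline replicate 1 stood apart, with 14645 of the nuclei kept and a median of 1963 UMIs per nucleus, against 2800 to 3521 in the others. It also carried more neuronal RNA in glial nuclei, so some results that rest on it are given with and without it. Between 20 and 47 of the kept barcodes were shared by any pair of libraries. The label calls the material brain cells, and marker genes named 20714 excitatory neuron-like, 4490 inhibitory neuron-like, 4033 astrocyte-like, 3213 oligodendrocyte-like and 2909 OPC-like nuclei (oligodendrocyte precursor cells), with smaller vascular and immune groups. One excitatory cluster of 2546 nuclei got no subtype name and is called the Rorb/Kcnh5-led cluster after 2 of its leading genes. Unnamed clusters held at most 1.70% of the nuclei of a library. In 20 classes and subtypes every library held at least 50 nuclei, and these were tested.

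Levels are given as CPM, the UMIs of a gene scaled to counts per 1000000 UMIs of that type in that library. They are compared across types for one gene and not between genes, since nuclear UMI counts are not corrected for gene length. Shares of the Gria or Grik UMIs are used in the same way, to compare types. These levels are descriptions with no test, and ± gives the SD over the 4 libraries.

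Gria4, which gives AMPA receptors with fast kinetics, varied most widely of the AMPA subunits among the neurons. In Lamp5-like interneurons Gria4 stood at 4167 and 3760 CPM in METH replicates 1 and 2 and at 3634 and 4068 CPM in saline replicates 1 and 2. Its level in Pvalb-like interneurons was 3729, 3513, 3573 and 3587 CPM in the same order, and the ranges of these leading types overlapped. At the other end, L5 ET-like neurons, the deep-layer cells that project out of the cortex, had 254.8, 202.6, 270.0 and 178.2 CPM. No library of another neuronal type came below 775.4 CPM, so L5 ET-like nuclei stood alone at the bottom of the order. Between these ends came the Rorb/Kcnh5-led cluster (2387 ± 141 CPM), L5/6 NP-like (2193 ± 71.6), Vip-like (2168 ± 186) and Sst-like nuclei (1969 ± 59.6), each overlapping the next. The L2/3 IT-like, L4/5 IT-like, L6 IT-like and L6 CT-like nuclei formed a lower run from 1123 ± 32.0 to 855.5 ± 54.6 CPM, again with overlapping neighbours.

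Gria2 was more even across neurons, from 3113 ± 131 CPM in L5 ET-like to 1687 ± 61.8 CPM in L5/6 NP-like nuclei. Its share of the Gria UMIs differed more than its level. In Pvalb-like nuclei Gria2 made up 22.3% and 23.2% of the Gria UMIs in the METH replicates and 25.2% and 23.1% in the saline replicates. Lamp5-like nuclei had 26.1% ± 0.73 and Sst-like nuclei 32.8% ± 0.75. In L5 ET-like nuclei the share was 50.7%, 52.8%, 51.5% and 53.8%, the highest among the neurons. The other excitatory types lay between 36.2% ± 1.15 in L5/6 NP-like nuclei and 44.2% ± 1.24 in the Rorb/Kcnh5-led cluster. Pvalb-like and Lamp5-like nuclei, with the lowest Gria2 shares among neurons, had the highest Gria4 levels. Gria4 UMIs are part of the total, so a high Gria4 level lowers the Gria2 share by itself. The Rorb/Kcnh5-led cluster also had a high Gria4 level (2387 ± 141 CPM), without a low Gria2 share.

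Gria1, a subunit that is inserted into synapses during potentiation, was highest in Sst-like interneurons at 1161, 1187, 1116 and 1170 CPM. Pvalb-like nuclei followed at 833 ± 68.5 CPM without overlap, and the lowest neuronal level was 221 ± 18.1 CPM in L5/6 NP-like nuclei, which overlapped the Rorb/Kcnh5-led cluster (250 ± 18.3). Gria3 ran from 2096 ± 28.6 CPM in L5 ET-like nuclei down to the Vip-like interneurons. There it stood at 304.0, 259.8, 350.7 and 239.6 CPM, below every library of every other neuronal type. Vip-like nuclei thus combined little Gria3 with a Gria4 level close to that of L5/6 NP-like nuclei, where Gria3 was also low at 562 ± 67.7 CPM.

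**Figure D1:**
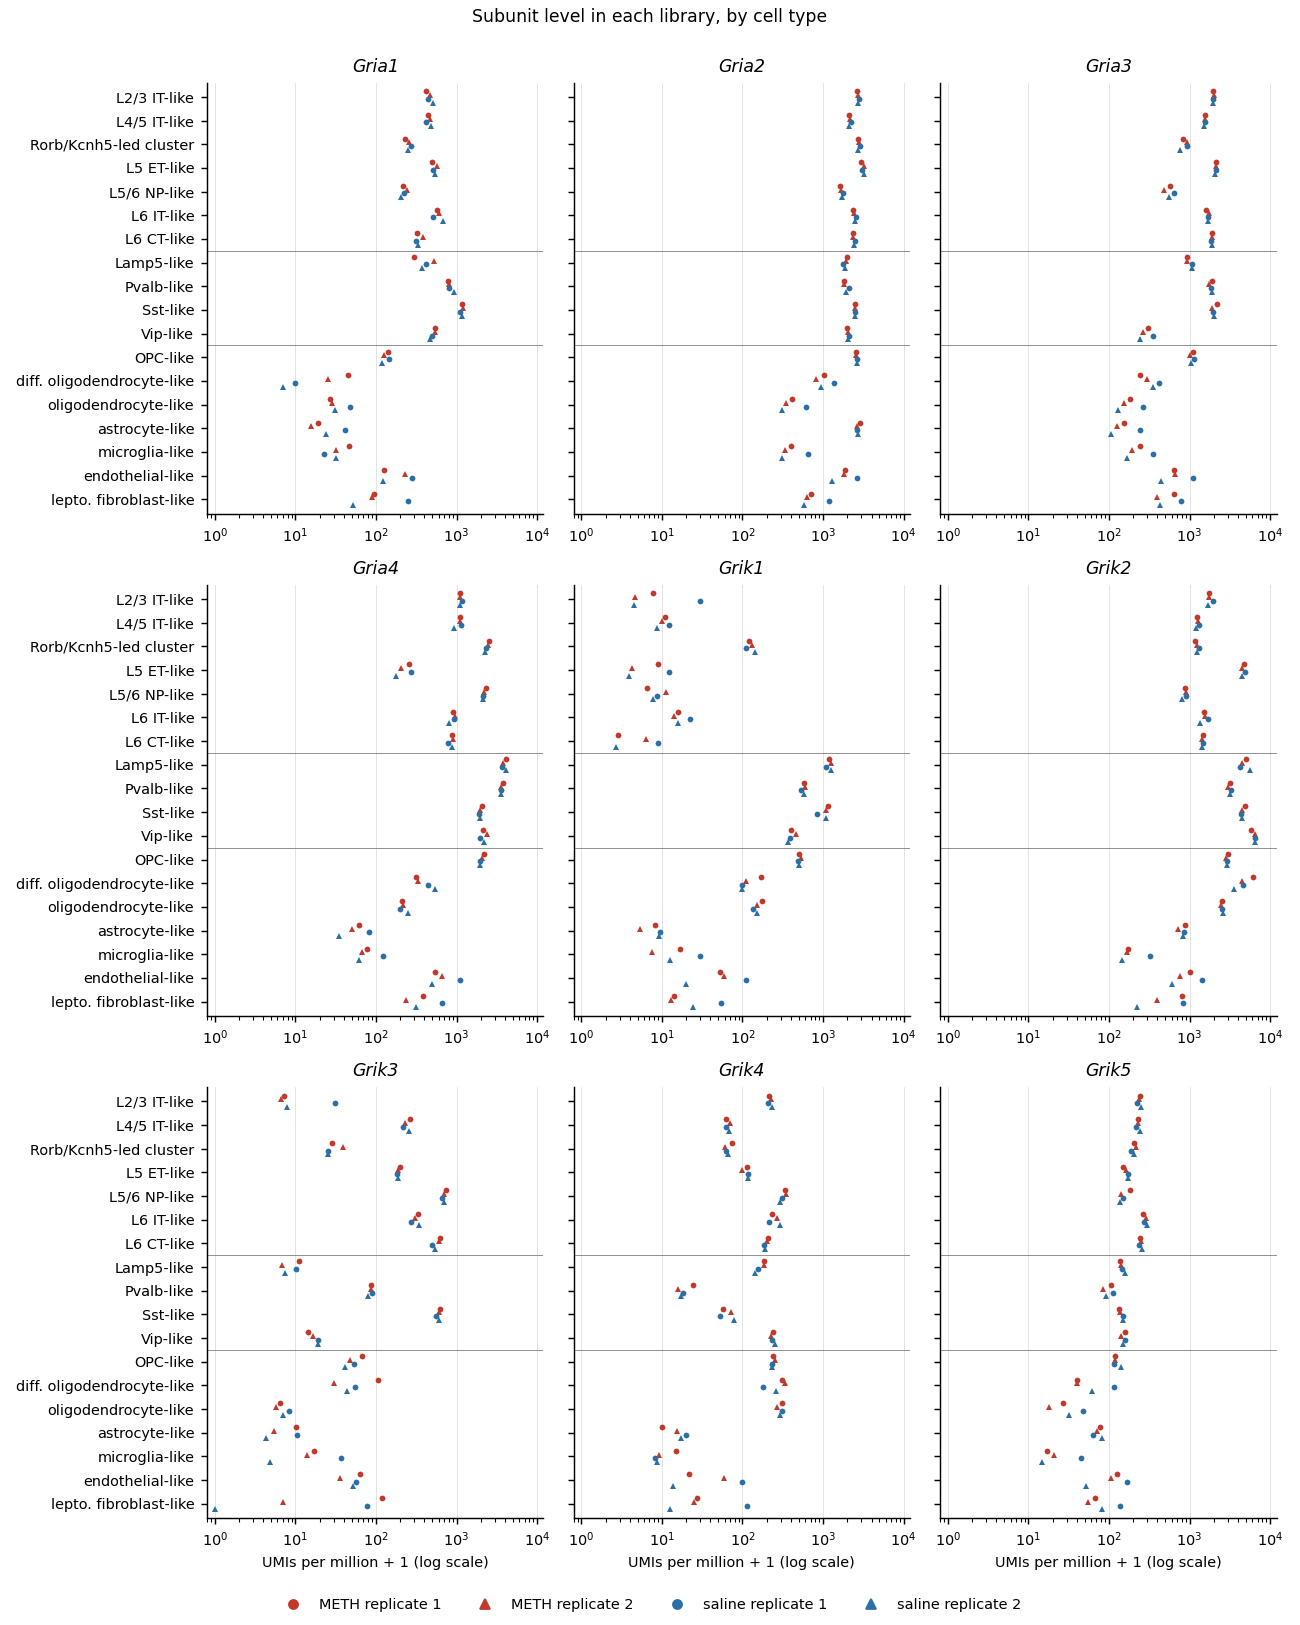
Level of each subunit gene (x axis, CPM plus 1, log scale) in 18 cell types (y axis), with 1 symbol per library, red for METH and blue for saline; the grey lines part excitatory types, interneurons and other cells. Gria4 falls to 226 ± 43.2 CPM in L5 ET-like nuclei, Gria3 to 289 ± 49.4 in Vip-like nuclei, and Grik1 is high in interneurons and OPC-like nuclei.

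Among the kainate subunits, Grik1 separated interneurons from most excitatory neurons. It stood at 1192, 1256, 1078 and 1270 CPM in Lamp5-like nuclei and at 1140, 1094, 840.2 and 1101 CPM in Sst-like nuclei, whose ranges overlapped. Pvalb-like (571 ± 30.7 CPM) and Vip-like nuclei (404 ± 42.4) came next, each apart from its neighbours. Of the excitatory types, the Rorb/Kcnh5-led cluster had 119.0, 129.2, 109.1 and 140.3 CPM. The other 6 had mean levels of 4.2 to 16.0 CPM, near the limit of what these libraries resolve; in L6 CT-like nuclei Grik1 rested on 42 UMIs in all.

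Grik3 showed another order. It was highest in L5/6 NP-like nuclei, at 746.0, 703.8, 668.2 and 694.8 CPM, where it made up 34.1% ± 1.36 of the Grik UMIs. Sst-like (599 ± 25.4 CPM) and L6 CT-like nuclei (570 ± 58.7) followed with overlapping ranges. Lamp5-like interneurons, the type with the most Grik1, had 10.2, 5.8, 9.3 and 6.3 CPM of Grik3, and Vip-like nuclei had 16.4 ± 2.3. Sst-like interneurons were the only neuronal type above 500 CPM for both genes in every library.

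Grik2, the partner that most native kainate receptors contain, was found in all types and was highest among neurons in Vip-like interneurons, at 5868, 6437, 6539 and 6495 CPM. Lamp5-like (4814 ± 587), L5 ET-like (4651 ± 150) and Sst-like nuclei (4533 ± 221) followed among the neurons with overlapping ranges. In L5 ET-like nuclei Grik2 took 90.9% ± 0.28 of the Grik UMIs, and in L5/6 NP-like nuclei 42.7% ± 1.53, the lowest share of the 18 types. Of the high-affinity subunits, Grik4 was highest among neurons in L5/6 NP-like nuclei (319 ± 26.1 CPM) and lowest in Pvalb-like nuclei, at 23.2, 14.6, 17.2 and 16.4 CPM. Grik5 was the most even of the kainate subunits, from 280 ± 14.6 CPM in L6 IT-like to 98.2 ± 12.8 CPM in Pvalb-like nuclei.

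**Figure D2:**
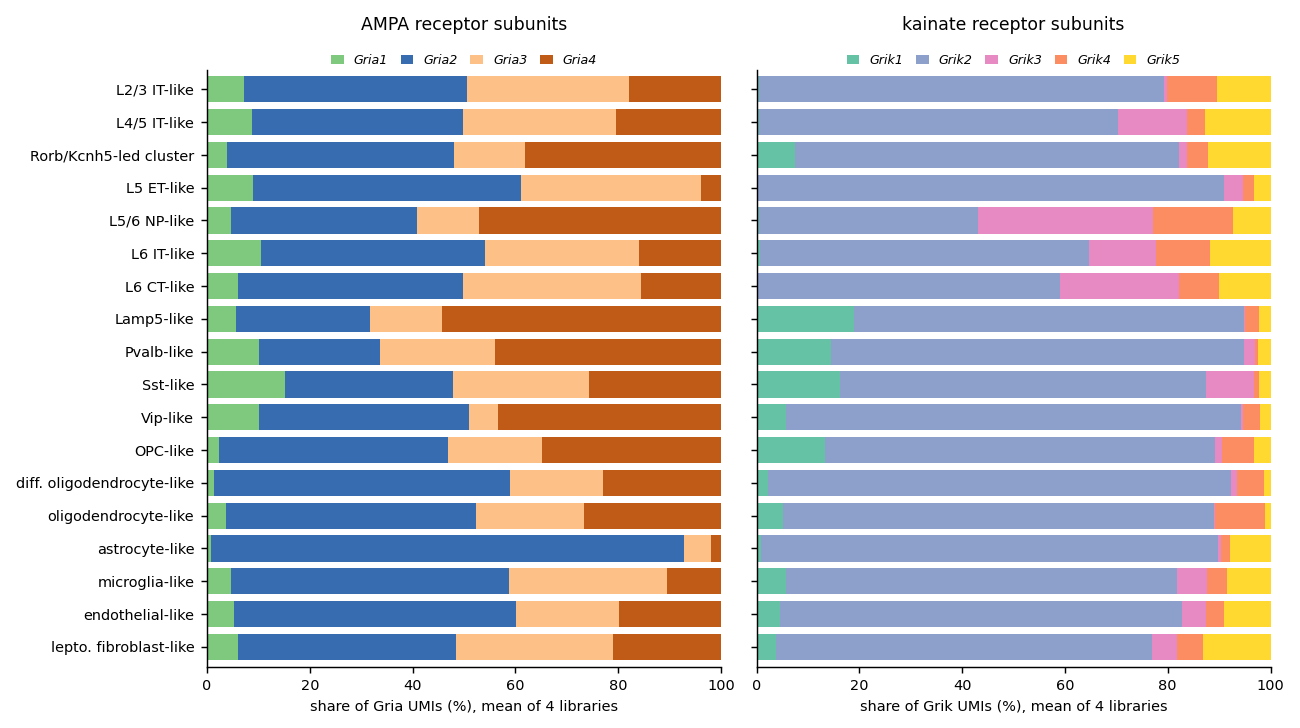
Share of the Gria UMIs (left) and Grik UMIs (right) taken by each subunit gene, in percent, as stacked bars of the mean over 4 libraries in 18 cell types. Gria2 takes 92.0% in astrocyte-like and 23.5% in Pvalb-like nuclei, and Grik2 takes 42.7% in L5/6 NP-like and 90.9% in L5 ET-like nuclei.

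Across the 18 types, Grik1 and Grik3 were the least alike of the 36 pairs of subunit genes (Pearson r = -0.25 of log2(CPM + 1)), and Gria2 and Grik5 (r = 0.85) and Gria1 and Gria3 (r = 0.83) the most alike. These correlations are descriptions, since the types share libraries. The 18 types also hold neurons and other cells, among them microglia-like, endothelial-like and leptomeningeal fibroblast-like nuclei. The part of that contrast and of free neuronal RNA in the correlations was not tested. The stretches upstream of Grik1 and Grik3 are shown because these genes had the least alike levels. Of the 9 genes, 6 have an entry in the RefSeq promoter table used here (build GRCr8, which may differ from the build of the files). The 250 bases before the annotated start are printed 5′ to 3′ on the gene's strand, Grik1 on the minus strand at chr11:41056504-41056753 and Grik3 on the plus strand at chr5:143052192-143052441. Capitals mark matches to GGGCGG on either strand.
Grik1: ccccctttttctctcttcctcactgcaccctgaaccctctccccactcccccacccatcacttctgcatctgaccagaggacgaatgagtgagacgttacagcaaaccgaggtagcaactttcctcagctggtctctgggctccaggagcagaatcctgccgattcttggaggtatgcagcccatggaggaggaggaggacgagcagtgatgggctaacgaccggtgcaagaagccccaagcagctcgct
Grik3: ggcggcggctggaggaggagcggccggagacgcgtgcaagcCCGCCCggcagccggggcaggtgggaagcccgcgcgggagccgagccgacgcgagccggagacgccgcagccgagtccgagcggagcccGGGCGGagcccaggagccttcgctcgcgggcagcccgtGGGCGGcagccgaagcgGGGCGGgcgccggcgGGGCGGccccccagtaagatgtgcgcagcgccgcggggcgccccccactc
The Grik1 stretch is 57.6% G or C with 8 CpG and 0 matches, and the Grik3 stretch 81.6% with 41 CpG and 5 matches. Of the 33469 promoters in the table, 30.5% hold GGGCGG in the same 250 bases, and their median G or C content is 51.2%. A match is a run of letters, and binding at these stretches was not measured.

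Other genes with a like pattern over the same 18 types, with the same limits, are named by the 2 highest correlations for each of 8 subunit genes. For Gria1 these were Atp2b3 (r = 0.96) and Dlgap2 (r = 0.96), for Gria3 Trerf1 (r = 0.89) and AABR07056156.1 (r = 0.88), and for Gria4 Fhl1 (r = 0.94) and Xkr4 (r = 0.91). For the kainate subunits they were AABR07033570.1 (r = 0.94) and Erbb4 (r = 0.85) for Grik1, AABR07045621.1 (r = 0.85) and Asxl3 (r = 0.84) for Grik2, Trpv6 (r = 0.84) and Ephb6 (r = 0.81) for Grik3, Ccdc112 (r = 0.84) and Ppp1r9a (r = 0.83) for Grik4, and Dok6 and Prkaa2 (both r = 0.95) for Grik5. Erbb4 is one of the markers that named the Pvalb-like nuclei.

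In glia, UMIs of neuronal genes can come from free RNA, so each level was set against 9 neuronal genes such as Slc17a7, Syt1 and Snap25. For every gene the UMIs per glial nucleus were expressed as a percent of those per excitatory neuron-like nucleus of the same library, and a subunit gene was read as above this reference only where it passed the highest of the 9 in all 4 libraries. In astrocyte-like nuclei Gria2 reached 27.3% to 35.0%, against a highest reference gene of 4.66% to 12.2%, and Grik2 11.8% to 15.5%. Gria2 stood at 2843, 2635, 2627 and 2683 CPM in astrocyte-like nuclei, overlapping the OPC-like level (2611 ± 32.9). It made up 92.5%, 93.3%, 87.8% and 94.4% of their Gria UMIs, more than in any other type in every library. The lowest of these values was that of saline replicate 1, where the reference was highest.

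OPC-like nuclei passed the reference for Gria2, Gria3, Gria4, Grik1, Grik2 and Grik4. Their Gria4 level was 2042 ± 104 CPM, above that of excitatory neuron-like nuclei (1158 ± 81.7) in every library. CPM is a share of a type's UMIs, and per nucleus Gria4 was lower, at 42.8% to 60.8% of the excitatory value. Grik1 in OPC-like nuclei was 505.1, 527.9, 491.4 and 509.2 CPM. Along the oligodendrocyte lineage Grik1 was 119 ± 33.0 CPM in differentiating oligodendrocyte-like and 152 ± 16.3 in oligodendrocyte-like nuclei, and Gria4 410 ± 106 and 217 ± 21.3. Grik2 had a different course, with 2918 ± 84.3 CPM in OPC-like, 4722 ± 1054 in differentiating oligodendrocyte-like and 2521 ± 38.7 in oligodendrocyte-like nuclei. Grik4 was 295 ± 17.1 CPM in oligodendrocyte-like nuclei, above every library of excitatory neuron-like nuclei as a class (156 ± 8.1). Per nucleus Grik4 was again lower there, at 33.5% to 69.9% of the excitatory value. In oligodendrocyte-like nuclei Grik1, Grik2 and Grik4 passed the reference and none of the AMPA subunits did in all 4 libraries. For Grik1 the reference is weak, since Grik1 was low in excitatory (23.1 ± 3.2 CPM) and high in inhibitory neuron-like nuclei (754 ± 61.7). The part of free interneuron RNA in the Grik1 level of glia was not tested.

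Microglia-like nuclei passed the reference in all 4 libraries for none of the 9 genes (Grik1 did in 3), and leptomeningeal fibroblast-like nuclei for none either. In endothelial-like nuclei only Grik1 did, with 36 UMIs in all. The perivascular macrophage-like and pericyte-like clusters held under 50 nuclei in a library and were not tested; their reference genes reached medians of 87.4% and 59.6% in saline replicate 1. Subunit levels in these vascular and immune nuclei are therefore not read as their own.

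**Figure D3:**
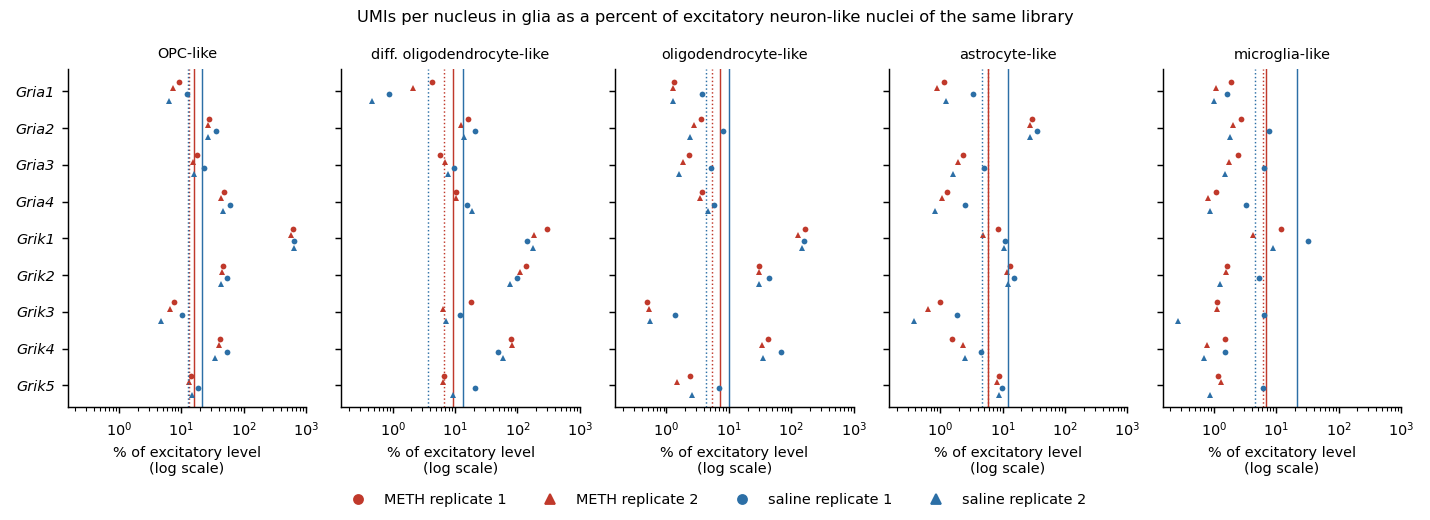
UMIs per nucleus of each subunit gene in 5 glial types, as a percent of the value in excitatory neuron-like nuclei of the same library (x axis, log scale), with 1 symbol per library; vertical lines mark the highest of 9 neuronal reference genes, solid for replicate 1 and dotted for replicate 2. Gria2 in astrocyte-like nuclei lies at 27.3% to 35.0%, right of all lines, while the AMPA subunits in microglia-like nuclei do not pass the lines of all libraries; Grik1 is low in excitatory nuclei, which raises its percent in every type.

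The study's comparison asks whether repeated METH changed expression. UMIs were summed per type and library and METH was tested against saline with edgeR's quasi-likelihood F test (two-sided, Benjamini-Hochberg adjustment over all genes tested in a type). None of the 166 tests of a subunit gene in a type was called at an adjusted p under 0.05, and the smallest adjusted p was 0.799. All 9 genes passed the filter on low counts in 13 of the 20 types, and at least 5 did in each. At an unadjusted p under 0.05 stood 8 of the 166 tests (4.82%), against 4.19% of all 185495 tests of a gene in a type. DESeq2 also called 0 of them. Few genes of any kind were called. The called share was 0.00665% of genes in excitatory neuron-like and 0.0169% in inhibitory neuron-like nuclei. It was 0% in L2/3 IT-like, L5 ET-like, microglia-like, endothelial-like and leptomeningeal fibroblast-like nuclei. It was 0.0237% in L4/5 IT-like, 0.00922% in the Rorb/Kcnh5-led cluster, 0.0606% in L5/6 NP-like, 0.0091% in L6 IT-like and 0.00942% in L6 CT-like nuclei. In the remaining types it was 0.029% (Lamp5-like), 0.0419% (Pvalb-like), 0.0108% (Sst-like), 0.023% (Vip-like), 0.0204% (OPC-like), 0.0553% (differentiating oligodendrocyte-like), 0.0224% (oligodendrocyte-like) and 0.00991% (astrocyte-like).

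In excitatory neuron-like nuclei the AMPA subunits differed by little between the groups. Gria1 stood at 408.7 and 444.7 CPM in METH replicates 1 and 2 and at 412.8 and 467.9 CPM in saline replicates 1 and 2, a log2 fold change of -0.02 ± 0.073 (SE). Gria2 stood at 2435, 2505, 2615 and 2496 CPM in the same order (log2 -0.02 ± 0.056), and Gria3 at 1637, 1671, 1705 and 1639 CPM (log2 0.01 ± 0.056). The groups overlapped for these 3 genes. Gria4 stood at 1200 and 1239 CPM after METH and at 1143 and 1051 CPM after saline, with no overlap (log2 0.18 ± 0.061, adjusted p = 1.000 by edgeR). Of all genes tested, 31.6% had groups with no overlap in these nuclei, and of the 9 subunit genes only Gria4 did.

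The Rorb/Kcnh5-led cluster, which is rich in Gria4, made up 14.2% and 16.1% of the excitatory neuron-like nuclei in the METH replicates and 10.3% and 12.3% in the saline replicates. Without this cluster Gria4 stood at 1011, 1045, 1019 and 916 CPM and the groups overlapped. The log2 ratio of the mean CPM, a simpler measure than the edgeR fold change, was 0.09 without the cluster and 0.15 in the whole class. Within the cluster Gria4 stood at 2551 and 2455 CPM after METH and 2296 and 2246 CPM after saline (log2 0.16 ± 0.062, adjusted p = 0.799 by edgeR). Both the share of nuclei in the cluster and the Gria4 level of the class were higher in the METH libraries. Within saline they went opposite ways, since replicate 1 had the lower share and the higher Gria4 level of the class. The part of the share in the difference was not tested.

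The kainate subunits in excitatory neuron-like nuclei overlapped between the groups in all 5 cases. Grik2 stood at 1752, 1622, 1893 and 1690 CPM (log2 -0.06 ± 0.071), and Grik1 at 21.9, 23.7, 27.3 and 19.7 CPM (log2 -0.03 ± 0.149). Grik3 stood at 230.4, 180.0, 176.7 and 216.9 CPM (log2 0.09 ± 0.167). Grik4 (log2 0.04 ± 0.070) and Grik5 (log2 0.03 ± 0.063) lay between 147.4 and 236.6 CPM in every library.

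In inhibitory neuron-like nuclei Gria2 stood at 2083 and 2078 CPM after METH and 2182 and 2118 CPM after saline (log2 -0.05 ± 0.056), and Grik5 at 127.2, 120.7, 137.0 and 128.6 CPM (log2 -0.10 ± 0.083). These 2 genes had no overlap between the groups, against 32.3% of all genes tested there. Grik1 stood at 770.7, 803.8, 664.1 and 778.0 CPM (log2 0.12 ± 0.069), with saline replicate 1 the lowest and the other 3 libraries together. The remaining 6 genes overlapped, with log2 fold changes from -0.06 ± 0.069 for Gria3 to 0.10 ± 0.096 for Grik4. The treatment effect was also compared between inhibitory and excitatory neuron-like nuclei, with the library as a block. None of the 9 genes was called (edgeR), nor was any of the 14966 genes tested, a called share of 0%, with 521 at an unadjusted p under 0.05. The largest difference of a subunit gene was 0.16 ± 0.301 for Grik1. Without saline replicate 2 that difference was 0.49 ± 0.108 (adjusted p = 0.0018 by edgeR), with the lone saline library assumed to vary like the METH libraries. Without saline replicate 1 it was -0.21 ± 0.111, and without the cluster described below that came mostly from saline replicate 1 it was -0.01 ± 0.110, neither of them called, so its direction turned with that library.

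**Figure D4:**
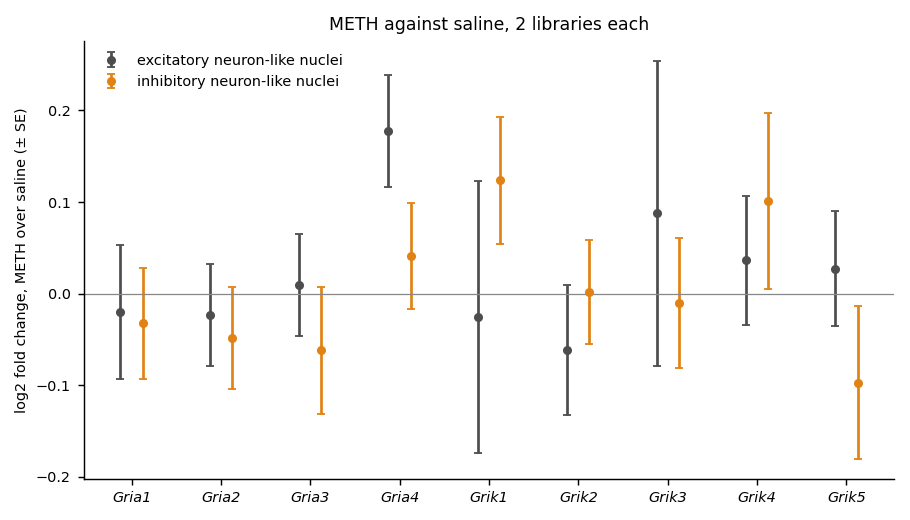
Log2 fold change of METH over saline (y axis, ± SE from edgeR) for the 9 subunit genes (x axis) in excitatory (grey) and inhibitory (orange) neuron-like nuclei, 2 libraries per group. The largest change is 0.18 ± 0.061 for Gria4 in excitatory neuron-like nuclei, and none passed an adjusted p of 0.05.

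Over the 18 types that count neurons by subtype, METH lay above saline without overlap in 22 of 148 pairs of a subunit gene and a type (14.9%) and below it in 23 (15.5%). Over all genes and the same types these shares were 14.7% and 17.8%, so the subunit genes stood near the background. Single differences at an unadjusted p under 0.05 beyond those of Gria4 above were few. In L6 CT-like nuclei Grik3 stood at 624.4 and 612.1 CPM after METH and at 499.9 and 543.5 CPM after saline (log2 0.27 ± 0.080, adjusted p = 0.976 by edgeR). In the Rorb/Kcnh5-led cluster, where Grik3 is low, it stood at 27.4, 38.0, 24.4 and 24.7 CPM (log2 0.44 ± 0.187, adjusted p = 0.799 by edgeR). Gria2 in Pvalb-like nuclei stood at 1842, 1827, 2090 and 1926 CPM (log2 -0.14 ± 0.067, adjusted p = 0.979 by edgeR). None of these passed the adjustment over all genes.

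The other 3 were in glia. Gria1 in astrocyte-like nuclei rested on 28, 30, 51 and 28 UMIs (log2 -0.94 ± 0.302, adjusted p = 1.000 by edgeR), did not pass the neuronal reference in any library, and was highest in saline replicate 1. Grik5 in oligodendrocyte-like nuclei rested on 33, 25, 19 and 31 UMIs (log2 -0.73 ± 0.326, adjusted p = 1.000 by edgeR) and did not pass the reference either. Gria4 in differentiating oligodendrocyte-like nuclei had 57, 69, 50 and 89 UMIs (log2 -0.58 ± 0.267, adjusted p = 0.997 by edgeR). Neuronal reference genes were highest in saline replicate 1 in astrocyte-like nuclei (median 5.88%, against 1.45% to 2.13% in the others), and their part in these differences was not tested.

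The largest fold changes of a subunit gene were those of Grik1 and Grik3 in L2/3 IT-like nuclei, and they rested on 1 library. Grik1 stood at 6.7, 3.6, 29.0 and 3.5 CPM, with only saline replicate 1 high (log2 -1.72). Grik3 stood at 6.2, 5.7, 30.3 and 6.9 CPM (log2 -1.67). Of the 3249 nuclei of one L2/3 IT-like cluster, 2671 came from that library. Without this cluster Grik1 stood at 6.6, 3.5, 5.7 and 3.6 CPM and Grik3 at 4.0, 4.3, 7.5 and 5.7 CPM. The summed level of 5 inhibitory markers in L2/3 IT-like nuclei moved with it, at 9.4, 9.6, 42.4 and 5.8 CPM with the cluster and 8.5, 7.6, 7.3 and 4.6 CPM without. Their part in the difference was not tested. When saline replicate 2 was left out, so that saline replicate 1 alone stood for its group, 8 subunit tests were called by edgeR, and so were 0.786% of all gene tests, with 3.57% in L2/3 IT-like, 7.95% in endothelial-like and 1.22% in astrocyte-like nuclei. The subunit tests were Grik1 (log2 -2.50) and Grik3 (-2.32) in L2/3 IT-like, Grik1 in Sst-like (0.42), Gria1 (-1.27) and Gria3 (-0.82) in astrocyte-like, Gria4 in endothelial-like (-0.85), Gria2 in microglia-like (-0.80) and Gria2 in oligodendrocyte-like nuclei (-0.64). Without saline replicate 1 a single one was called, Grik2 in leptomeningeal fibroblast-like nuclei (log2 1.37), beside 0.106% of all gene tests. The lone library was assumed to vary like the other group.

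The ratio of Gria4 to Gria2 UMIs within a library does not depend on the scaling of that library. In excitatory neuron-like nuclei its log2 value was -1.02 and -1.02 in the METH replicates and -1.19 and -1.25 in the saline replicates, a difference of 0.20. Without the Rorb/Kcnh5-led cluster the difference was 0.15. Within that cluster the ratio stood at -0.09 and -0.17 after METH and -0.33 and -0.27 after saline. In OPC-like nuclei it was -0.25, -0.32, -0.42 and -0.44, and in L6 IT-like nuclei -1.39, -1.31, -1.48 and -1.64. METH libraries lay above saline libraries in 8 of 17 types with enough UMIs (these 3 with L4/5 IT-like, L5/6 NP-like, L6 CT-like, Pvalb-like and Vip-like nuclei), by 0.15 to 0.21 on the log2 scale, and below them in endothelial-like nuclei. Over all genes with at least 20 UMIs in every library, 19.9% of the ratios of a gene to Gria2 lay above in the same way, summed over these types, from 2.46% in oligodendrocyte-like to 40.2% in Pvalb-like nuclei. In L2/3 IT-like, Sst-like and Lamp5-like nuclei the groups overlapped. The log2 ratio of Gria3 to Gria2 lay above saline after METH in excitatory neuron-like nuclei as a class, by 0.03. It also lay above in L2/3 IT-like, L4/5 IT-like, L6 CT-like, oligodendrocyte-like and microglia-like nuclei, and below in Lamp5-like nuclei. That of Gria1 to Gria2 lay above in L5 ET-like, L5/6 NP-like, L6 CT-like and Vip-like nuclei and below in astrocyte-like nuclei. In the remaining types with enough UMIs the groups overlapped. Gria2 and Gria3 in oligodendrocyte-like and microglia-like nuclei and Gria1 in astrocyte-like nuclei passed the neuronal reference in no library. In endothelial-like nuclei Gria2 passed it in 2 libraries and Gria4 in 1.

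The exact permutation test of 2 against 2 libraries cannot go below a two-sided p of 0.333, so no ratio can be called in any type. That is the value for Gria4 to Gria2 in each of its 8 types. The types come from the same 4 libraries and are not independent of each other, so 8 types are not 8 repeats. The log2 fold change of Gria2 was below 0 in 16 of 18 types (median -0.04) and that of Gria4 above 0 in 12 of 18 (median 0.04). Medians of the other subunit genes ran from -0.05 for Grik5 to 0.08 for Grik3. Over all genes, the share above 0 ran from 47.5% in endothelial-like to 51.0% in oligodendrocyte-like nuclei. The types include microglia-like, endothelial-like and leptomeningeal fibroblast-like nuclei, whose subunit levels are not read as their own.

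The share of Gria2 in the Gria UMIs was compared in the same way. In excitatory neuron-like nuclei it was 42.9% and 42.7% after METH and 44.5% and 44.1% after saline, a difference of -1.51 percentage points. METH libraries lay below saline libraries in 8 of 18 types, with differences of -1.51 to -2.79 points. Of all genes, 17.3% had a ratio to the Gria UMIs that lay below in the same way, summed over these types. The 8 types include microglia-like nuclei (-2.73 points), whose subunit UMIs are not read as their own, and not Pvalb-like nuclei, where the shares overlapped. Vip-like nuclei had 39.9%, 38.8%, 42.8% and 41.5%. Lamp5-like nuclei went the other way, with 26.7% and 26.7% after METH and 25.6% and 25.3% after saline. In inhibitory neuron-like nuclei as a class the groups overlapped (28.3%, 29.8%, 30.5% and 28.9%). The exact permutation p was again 0.333 where the groups did not overlap.

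**Figure D5:**
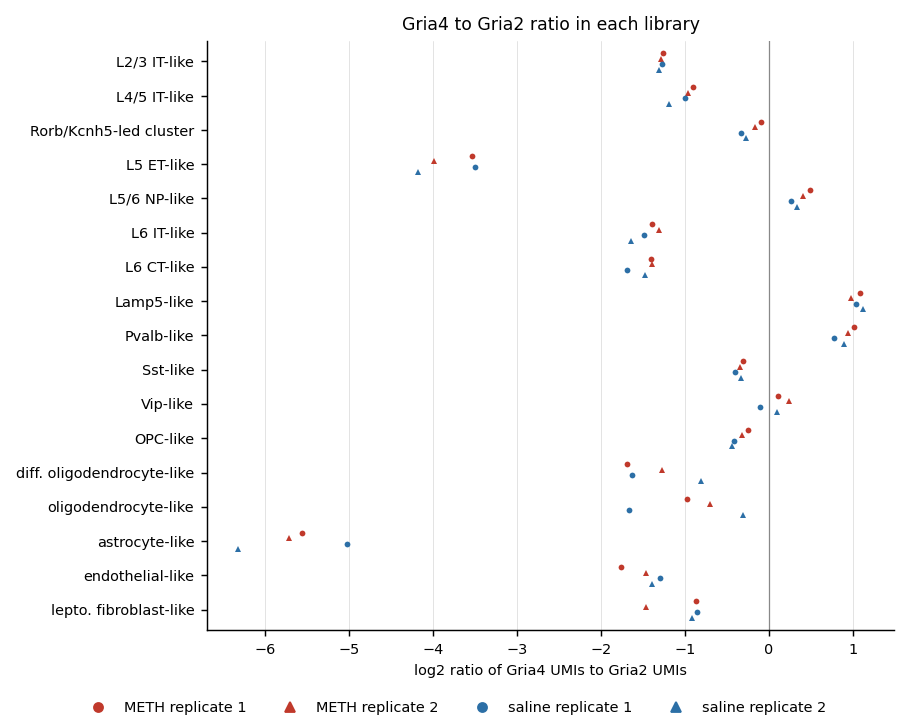
Log2 ratio of Gria4 to Gria2 UMIs (x axis) in 17 cell types (y axis), with 1 symbol per library, red for METH and blue for saline. The ratio is above 0 in Lamp5-like, Pvalb-like and L5/6 NP-like nuclei in every library, and the red symbols lie right of the blue ones by 0.15 to 0.21 in 8 types.

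Among the kainate subunits, the log2 ratio of Grik1 to Grik2 UMIs in Vip-like nuclei was -3.89 and -3.79 in the METH replicates and -4.08 and -4.14 in the saline replicates, a difference of 0.27. In oligodendrocyte-like nuclei it was -3.88, -4.04, -4.23 and -4.10 (difference 0.21), and in L6 IT-like nuclei, where Grik1 is scarce, -6.68, -6.90, -6.30 and -6.52 (difference -0.38). The groups did not overlap in these 3 types, and the direction in L6 IT-like nuclei was opposite to that in the other 2. They overlapped in OPC-like, L2/3 IT-like, L4/5 IT-like, Lamp5-like, Pvalb-like and Sst-like nuclei and the Rorb/Kcnh5-led cluster. In inhibitory neuron-like nuclei as a class the ratio was -2.52, -2.49, -2.72 and -2.55, with no overlap. Where the groups did not overlap, the exact permutation p was 0.333, the smallest possible. No share over all genes was worked out for ratios to Grik2. For CPM levels, groups did not overlap for 33.3% of all genes in Vip-like, 32.8% in oligodendrocyte-like and 32.4% in L6 IT-like nuclei.

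The log2 ratio of all Gria to all Grik UMIs also had METH libraries above saline in some types and below in others. It was lowest among neurons in Vip-like nuclei, at -0.43, -0.48, -0.59 and -0.56, below every library of every other neuronal type. METH libraries lay above saline there and below it in L5/6 NP-like (1.12, 1.12, 1.22 and 1.25), L6 CT-like, Pvalb-like, Sst-like and differentiating oligodendrocyte-like nuclei. Each of these had the exact permutation p of 0.333, the smallest possible, and in the other types the groups overlapped. Over all genes, CPM levels lay above saline without overlap in 14.7% of cases and below in 17.8%. No such share was worked out for ratios to Grik UMIs.

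The genes that act on these receptors were followed in 9 lists, grouped by role. None of their tested members was called in any of the 20 types (edgeR), and the smallest adjusted p was 0.398, for Adarb1 in Lamp5-like nuclei. Adarb1, which edits the Gria2 transcript, is named here after its value was seen. DESeq2 called 15 genes over all types, none of them a subunit gene. Over all genes, 50.3% had a positive fold change in excitatory and 49.7% in inhibitory neuron-like nuclei, with medians of 0.00. Of the 9 neuronal reference genes, 8 had a positive fold change in excitatory neuron-like nuclei (median 0.07) and 2 in inhibitory ones (median -0.04), so the lists below are read beside these as well.

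All 6 TARPs, which escort AMPA receptors to the synapse, had positive log2 fold changes in excitatory neuron-like nuclei (median 0.13), and 3 of 5 in inhibitory ones (median 0.01). Cacng2, the TARP stargazin, stood at 119.6 and 121.3 CPM after METH and 92.9 and 107.6 CPM after saline in excitatory neuron-like nuclei (log2 0.29 ± 0.076, adjusted p = 1.000 by edgeR). Cacng8 was at 87.1, 86.8, 74.4 and 84.0 CPM (log2 0.16 ± 0.074). In inhibitory neuron-like nuclei Cacng3 stood at 184.8, 197.3, 211.8 and 216.2 CPM (log2 -0.17 ± 0.073) and Cacng8 at log2 0.06 ± 0.082. Over all tested TARPs the groups did not overlap for 3 of 6 genes in excitatory and 2 of 5 in inhibitory neuron-like nuclei. Of all genes tested, 31.6% and 32.3% had no overlap there, and counts this small cannot be told from those shares.

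Of the other AMPA receptor auxiliary subunits, all 6 tested had positive fold changes in excitatory neuron-like nuclei (median 0.08), with Prrt2 at log2 0.19 ± 0.067 and Cnih3 at log2 0.18 ± 0.070, and 4 of 7 in inhibitory ones (median 0.00), with Prrt1 at log2 -0.35 ± 0.227 and Prrt2 at -0.13 ± 0.135. Neto1 and Neto2, the kainate receptor auxiliary subunits, stood at log2 0.08 ± 0.061 and 0.06 ± 0.072 in excitatory and at -0.02 ± 0.057 and -0.15 ± 0.085 in inhibitory neuron-like nuclei. Among 5 assembly factors, Porcn (log2 -0.10 ± 0.073) and Sacm1l (0.05 ± 0.064) had the smallest p in excitatory and Sacm1l (0.10 ± 0.080) and Cpt1c (-0.09 ± 0.108) in inhibitory neuron-like nuclei. Of the trafficking and anchoring genes, the scaffold Grip2 was at log2 -0.27 ± 0.112 in excitatory and 0.21 ± 0.093 in inhibitory neuron-like nuclei, with Syndig1 at 0.14 ± 0.063 and Akap5 at 0.37 ± 0.186. The medians of this list were 0.04 and 0.05, close to the medians of all genes.

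The synaptic organizer Lrrtm4, a postsynaptic adhesion protein, stood at log2 0.13 ± 0.057 in excitatory and 0.11 ± 0.057 in inhibitory neuron-like nuclei. In its list Lrrtm2 was at -0.12 ± 0.096 in excitatory and Nptx1 at -0.41 ± 0.255 in inhibitory neuron-like nuclei. Among the kinases and phosphatases, Prkca was at log2 0.14 ± 0.067 and Camk2a at 0.11 ± 0.058 in excitatory, and Prkca at 0.13 ± 0.070 and Ppp1cc at -0.17 ± 0.102 in inhibitory neuron-like nuclei. In the list for RNA editing of receptor transcripts, Adar was at log2 0.05 ± 0.062 in excitatory and -0.18 ± 0.091 in inhibitory neuron-like nuclei. Adarb2, a relative of Adar in the same list, was at -1.14 ± 0.991 and 0.10 ± 0.072. Adarb2 marks interneurons and was high in excitatory neuron-like nuclei only in saline replicate 1, at 15.5 CPM against 3.2 to 5.3 in the others. The delta receptor subunit Grid1 stood at log2 0.03 ± 0.061 in excitatory and at 0.03 ± 0.076 in inhibitory neuron-like nuclei.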

How the data were processed

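Nuclear RNA of rat orbitofrontal cortex was captured with the 10x 3′ v3.1 chemistry in 4 libraries, 2 per group. The authors deposited raw UMI counts per gene and barcode, made with Cell Ranger 7.0.0, per the submitters' processing notes. Those notes name hg38, while the gene identifiers are rat Ensembl identifiers; neither label nor file header gives a rat build.

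Nuclei with at least 500 genes and at most 5% mitochondrial UMIs were kept. Doublets were scored with Scrublet in Scanpy 1.11.5. Its own threshold found none in saline replicate 1, so the highest scores were removed at 0.8% per 1000 barcodes in every library. Nuclei were clustered (3000 variable genes without the 9 subunit genes, 30 components, 20 neighbours, Leiden resolution 1) and clusters were named from marker lists. Counts were summed per type and library, for types with at least 50 nuclei in every library, and tested with edgeR 4.0.16 (TMM, filterByExpr, quasi-likelihood F test, robust); DESeq2 1.42.0 was an alternative. Ratios needed at least 20 UMIs on each side in every library and were tested by exact permutation over libraries. Other alternatives were no filter on low counts, leaving out each library, a replicate block, at least 1000 genes per nucleus, doublets kept, a resolution of 2, equal numbers of nuclei, and subunit genes allowed in the clustering. All 9 subunit genes are named; of each list, genes called or else the 2 with the smallest p in each neuron class; and for each subunit gene the 2 most alike genes with at least 10 CPM in a type. Some genes that this rule names are not reported here. The subunit genes and lists were chosen with earlier results of these data known.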

Additional observations from a re-analysis of the deposited data

How the results depend on the processing

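No subunit gene was called in any of the 20 types under DESeq2, with no filter on low counts or with the replicate block, in the 17 types left with at least 1000 genes per nucleus (without differentiating oligodendrocyte-like, endothelial-like and leptomeningeal fibroblast-like nuclei), or in the 19 types left with doublets kept (without Lamp5-like nuclei). Leaving out 1 library gave 0 to 8 calls, and the lone library left in a group was then assumed to vary like the others. Over all genes and types there were 30 calls, and 15 under DESeq2, 159 with no filter on low counts, 53 in the 17 types with at least 1000 genes per nucleus and 81 to 1545 without 1 library. With the replicate number as a block there were 144. Deviations of same-numbered libraries correlated at -0.044 to 0.183 over the 20 types, and the labels do not say what a number shares, so the numbers were not taken as pairs. The treatment term between neuron classes gave 0 to 1 subunit calls without 1 library. The excitatory difference in the log2 ratio of Gria4 to Gria2 was 0.15 without the Rorb/Kcnh5-led cluster, an alternative chosen after seeing the data.

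Alternative fold changes were compared for 25 of the 166 subunit tests. These were the tests in the excitatory and inhibitory neuron-like classes and those elsewhere with an unadjusted p under 0.05 (edgeR). Of 324 alternative values, 294 kept their direction and their side of the threshold and 29 changed sign. The sign changes fell in 13 of the 25 tests, and their cause was not tested. None of the 25 was called to begin with, so keeping the side of the threshold says little. Without 1 library the log2 fold changes in excitatory neuron-like nuclei ran from -0.11 to 0.073 for Gria1, -0.057 to 0.0051 for Gria2, -0.019 to 0.033 for Gria3, -0.24 to 0.23 for Grik1, -0.14 to 0.017 for Grik2, -0.11 to 0.26 for Grik3, -0.044 to 0.12 for Grik4 and -0.034 to 0.085 for Grik5. In inhibitory neuron-like nuclei they ran from -0.081 to 0.017 for Gria1, -0.19 to 0.057 for Gria3, -8.6e-05 to 0.082 for Gria4, -0.030 to 0.033 for Grik2 and -0.041 to 0.019 for Grik3. With at least 1000 genes per nucleus the values were -0.0054 for Gria3 and 0.22 for Grik1 in excitatory and -0.00024 for Gria4 and -0.015 for Grik2 in inhibitory neuron-like nuclei. With doublets kept, Gria3 was at -0.0014 and Grik1 at 0.16 in excitatory neuron-like nuclei. Without the cluster mostly of saline replicate 1, also chosen after seeing the data, Grik1 was at 0.14 there and 31 genes were called over all types. Grik2 in inhibitory neuron-like nuclei was at -0.0014 with the resolution doubled and -0.037 with equal numbers of nuclei. Levels moved by more than 1 SD in 37 of 180 cases with at least 1000 genes per nucleus and in 35 of 171 with doublets kept.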
